A study of Mus musculus with 6 samples.

Results

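The let-7 and miR-98 family was followed in the dentate gyrus of mice that had gone through status epilepticus, a state of unbroken seizure activity, induced by kainic acid (KA-SE). Its members were chosen by name alone, as every assay on the microRNA card for a mature let-7 or for miR-98. The rule used no measured values, though earlier results of these data were known when it was set. This gave 9 members (mmu-let-7a, mmu-let-7b, mmu-let-7c, mmu-let-7d, mmu-let-7e, mmu-let-7f, mmu-let-7g, mmu-let-7i and mmu-miR-98, given below without the mouse prefix) out of 375 microRNA assays and 381 assays in all. The KA-SE group held 3 male C57BL/6j mice of 6 to 8 weeks that were given repeated intraperitoneal injections of kainic acid, a glutamate receptor agonist that provokes seizures, and were kept only where long and severe seizures were scored. The saline group held 3 male mice of the same strain and age that were injected with saline. In both groups the dentate gyrus was dissected 72 h after the injections and the right side went into RNA, so each library came from 1 mouse and the replicates were separate animals. Because whole dissected tissue was used, fewer cells of a type and less RNA per cell cannot be told apart.

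MicroRNAs of the let-7 family are short RNAs that guide the silencing complex to messenger RNAs, mostly through pairing of their seed, the bases near the 5′ end. They were discovered as timing genes in the worm Caenorhabditis elegans and are kept from worms to mammals, where their mature forms are scarce in stem cells and build up as cells differentiate. Part of that control lies after transcription, since the protein LIN28 binds let-7 precursors and blocks their maturation. In mouse neural stem cells let-7b represses the nuclear receptor Tlx and cyclin D1, which drive proliferation. The dentate gyrus keeps dividing neural stem cells into adult life, beside a large population of mature granule neurons.

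The mature sequences are given 5′ to 3′, as RefSeq lists them with GRCm38.p6, because the members share 1 seed and differ by few bases outside it, so that each assay has to tell near neighbours apart. All 9 matched the RefSeq table by name. Capitals mark the seed, bases 2 to 8.
let-7a: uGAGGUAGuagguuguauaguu
let-7b: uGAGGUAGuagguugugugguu
let-7c: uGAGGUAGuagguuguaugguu
let-7d: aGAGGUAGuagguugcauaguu
let-7e: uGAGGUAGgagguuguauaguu
let-7f: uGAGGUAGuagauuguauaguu
let-7g: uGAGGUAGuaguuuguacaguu
let-7i: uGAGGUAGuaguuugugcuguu
miR-98: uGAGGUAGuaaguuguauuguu

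All 9 sequences were 22 bases long and carried the same seed, and 11 of the 1679 mature mouse microRNAs in the table had it, the other two being let-7k and miR-1961. With positions counted from 1 at the 5′ end and let-7a as the starting sequence, let-7c differed by A19G alone, let-7e by U9G alone and let-7f by G12A alone. let-7b differed from let-7a by A17G and A19G, let-7d by U1A and U16C, let-7g by G12U and U18C, and miR-98 by G11A and A19U. The member farthest from let-7a was let-7i, with G12U, A17G, U18C and A19U. Of the 36 pairs of members, 4 differed by a single base (let-7a with let-7c, let-7e and let-7f, and let-7b with let-7c). How far an assay on the card also reads its near neighbours was not tested.

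In the RefSeq genes of GRCm38.p6 the 9 members came from 12 gene copies, and several copies are neighbours that can be made from a shared precursor transcript. Mirlet7a-1, Mirlet7f-1 and Mirlet7d lie next to each other, as do Mirlet7b and Mirlet7c-2. Mirlet7f-2 and Mir98 both lie within Huwe1, a ubiquitin ligase gene. Mirlet7e lies beside Mir99b and Mir125a, Mirlet7c-1 beside Mir99a, and Mirlet7a-2 within Mir100hg beside Mir100. Mirlet7g lies within Wdr82, and Mirlet7i had no microRNA neighbour in the table within the 60000 bases searched on each side. The assays read mature RNA, so the copies that make let-7a, let-7c and let-7f cannot be told apart.

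The card reports each assay as a threshold cycle (Ct), the cycle of the PCR in which fluorescence passes its threshold, so a lower Ct stands for more of that RNA, and 40 stands for no amplification. Between 317 and 326 assays per library were below Ct 35 in KA-SE mice, and between 303 and 324 in saline mice. The 281 microRNAs below 35 in all 6 libraries were tested, and all 9 members were among them. A level is the Ct of U6, a small nuclear RNA, minus that of the microRNA when both come from the same library, and a difference of 1 in level is a 2-fold change if each cycle doubles the product. The reference itself was close between the groups, with a U6 Ct of 12.78, 13.57 and 13.33 in KA-SE and 12.89, 13.88 and 13.40 in saline mice (p = 0.7, two-sided exact permutation test, which cannot go below 0.1 with 3 mice against 3). The small nucleolar RNAs snoRNA135 and snoRNA202 gave p = 0.6 each in the same exact test, as did U87. Y1 RNA, a cytoplasmic control, was earlier in every KA-SE mouse, with a raw Ct of 17.71, 18.66 and 18.67 in KA-SE and 18.98, 19.83 and 18.96 in saline mice, a difference of -0.91 cycles at the smallest exact permutation p of 0.1 (n = 3 each). Saline replicate 2 was unlike the remaining 5 libraries. Compared with the average of the other two saline libraries, its Ct was later by a median of 2.23 cycles over the tested microRNAs but by only 0.60 to 0.86 cycles in U6, the nucleolar RNAs and Y1 RNA, so the main results on the family are given with and without it. All 13 microRNAs taken as markers of neurons, oligodendrocytes, endothelium, microglia and leukocytes, erythrocytes and choroid plexus were below 35 in every library, miR-9 of neurons and neural progenitors with a mean Ct of 15.05 and miR-204 of the choroid plexus with 17.16. Their levels over U6 differed between KA-SE and saline mice by -0.26 (miR-204) to 2.02 (miR-142-3p), and by -0.58 (miR-204) to 1.08 (miR-211) without saline replicate 2. Markers of the same cells could differ from each other. With all 6 libraries miR-211, also of the choroid plexus, was at 1.75. Beside miR-142-3p of microglia and leukocytes, miR-223 was at 0.07 and miR-150 at -0.06. The part of the markers in the results on let-7 was not tested.

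All 9 members amplified early. The earliest member was let-7e, with a Ct of 16.30, 16.93 and 16.95 in KA-SE replicates 1, 2 and 3 and of 15.80, 17.99 and 16.05 in saline replicates 1, 2 and 3. By Ct it ranked 13, 13 and 14 among the 281 microRNAs in the KA-SE libraries and 5, 12 and 12 in the saline libraries. The member with the latest mean Ct was miR-98, with a Ct of 16.89, 19.73 and 20.90 in KA-SE and of 19.85, 24.00 and 19.67 in saline mice. Its rank was 19, 48 and 63 in the KA-SE libraries and 55, 97 and 48 in the saline libraries, so miR-98 was the member whose place moved most. In the plot of raw Ct saline replicate 2 is the latest library for every member.

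**Figure D1:**
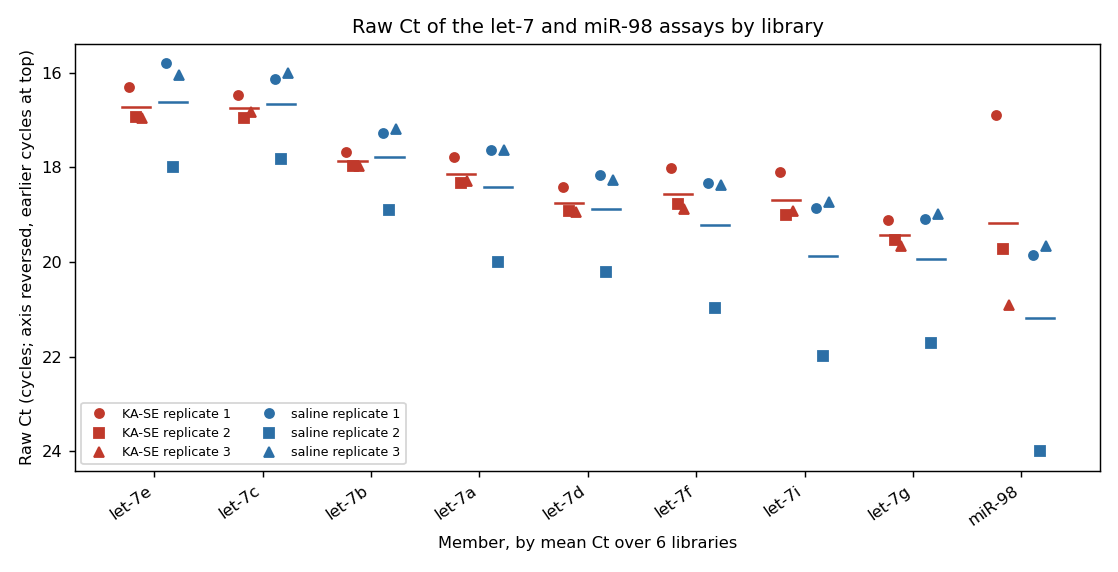
Raw Ct in cycles (vertical axis, reversed so that earlier cycles are at the top) of each of the 9 members in the 3 KA-SE libraries (red) and the 3 saline libraries (blue), with the mean of each group as a line. Members are ordered by mean Ct over all 6 libraries, and saline replicate 2 (blue squares) lies lowest for each of them, at 17.82 for let-7c and 24.00 for miR-98.

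Across the 6 libraries the order of mean Ct was let-7e, let-7c, let-7b, let-7a, let-7d, let-7f, let-7i, let-7g and miR-98. Since assays differ in how well they amplify, this is an order of Ct and not strictly one of abundance. let-7c preceded let-7b by 1.13 ± 0.07 cycles (SD, n = 6 libraries), the steadiest gap of all neighbours. let-7b preceded let-7a by 0.45 ± 0.34, let-7a preceded let-7d by 0.54 ± 0.17 and let-7f preceded let-7i by 0.38 ± 0.37 cycles, each in 6 of 6 libraries. The remaining neighbours did not differ beyond their spread, with 0.03 ± 0.19 cycles for let-7e and let-7c, 0.07 ± 0.39 for let-7d and let-7f, 0.41 ± 0.45 for let-7i and let-7g, and 0.49 ± 1.51 for let-7g and miR-98. Without saline replicate 2 let-7i preceded let-7g by 0.55 ± 0.33 cycles in 5 of 5 libraries, beyond the spread, and let-7f preceded let-7d by a mean of 0.06 cycles, within it.

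The comparison of KA-SE with saline asks whether the family changed 72 h after the seizures. Over U6 no member passed the test, and the members ran from slightly lower to higher levels in KA-SE mice without groups that were apart. let-7e had a level of -3.52, -3.36 and -3.62 in KA-SE replicates 1, 2 and 3 and of -2.91, -4.11 and -2.65 in saline replicates 1, 2 and 3. The KA-SE mice lay close together, between the values of saline replicate 2 and those of the other two saline mice. With limma its log2 fold change was -0.28 (SE 0.51, 95% interval -1.47 to 0.92, adjusted p = 0.762 after Benjamini-Hochberg over 281 microRNAs). let-7c and let-7b, which differ from each other by 1 base, had almost the same estimates of -0.26 (SE 0.48) and -0.25 (SE 0.48).

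let-7a had a level of -5.01, -4.76 and -4.96 in KA-SE mice and of -4.73, -6.13 and -4.23 in saline mice. Its log2 fold change was 0.12 (SE 0.57, 95% interval -1.22 to 1.46, adjusted p = 0.903 with limma), and that of let-7d was -0.04 (SE 0.51). The interval for let-7a thus covers more than a 2-fold change in either direction. The estimates for let-7f and let-7g were 0.50 (SE 0.61) and 0.33 (SE 0.63).

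let-7i had a level of -5.32, -5.44 and -5.59 in KA-SE mice and of -5.97, -8.11 and -5.34 in saline mice. Only saline replicate 3 lay within the KA-SE values, and the estimate was 1.02 (SE 0.73, 95% interval -0.69 to 2.74, adjusted p = 0.556 with limma). miR-98 had a level of -4.11, -6.16 and -7.57 in KA-SE mice and of -6.95, -10.12 and -6.27 in saline mice. Both groups of miR-98 were wide, and its estimate of 1.84 (SE 1.21, 95% interval -1.004 to 4.68, adjusted p = 0.556 with limma) moved with single libraries. As each library was left out in turn, it was lowest at 0.67 with saline replicate 2 left out and at 0.92 with KA-SE replicate 1 left out, and highest at 2.60 with saline replicate 3 left out and at 2.65 with KA-SE replicate 3 left out. The estimate for let-7i ran from 0.20 (without saline replicate 2) to 1.59 (without saline replicate 3).

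Of all 281 microRNAs, 0% passed both limits of a call, an adjusted p below 0.05 and a change of 1.5-fold or more, so 0 of 9 members is no result about the family. With p left unadjusted and below 0.05, 7 microRNAs were higher (2.49%) and 1 lower (0.356%) by limma, 0 of them members, and 6 were higher and 0 lower by the methods' t-test. The groups did not overlap for 19.2% of the 281 microRNAs in the higher direction and for 1.42% in the lower direction, and for 0 of 9 members in either. The place of the members within the whole set is described here without a test. The median log2 fold change of the members was 0.12, against 0.62 over all 281 microRNAs, and 7 of 9 members were below the median of all. 5 of 9 members had a positive estimate, as did 245 of the 281.

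**Figure D2:**
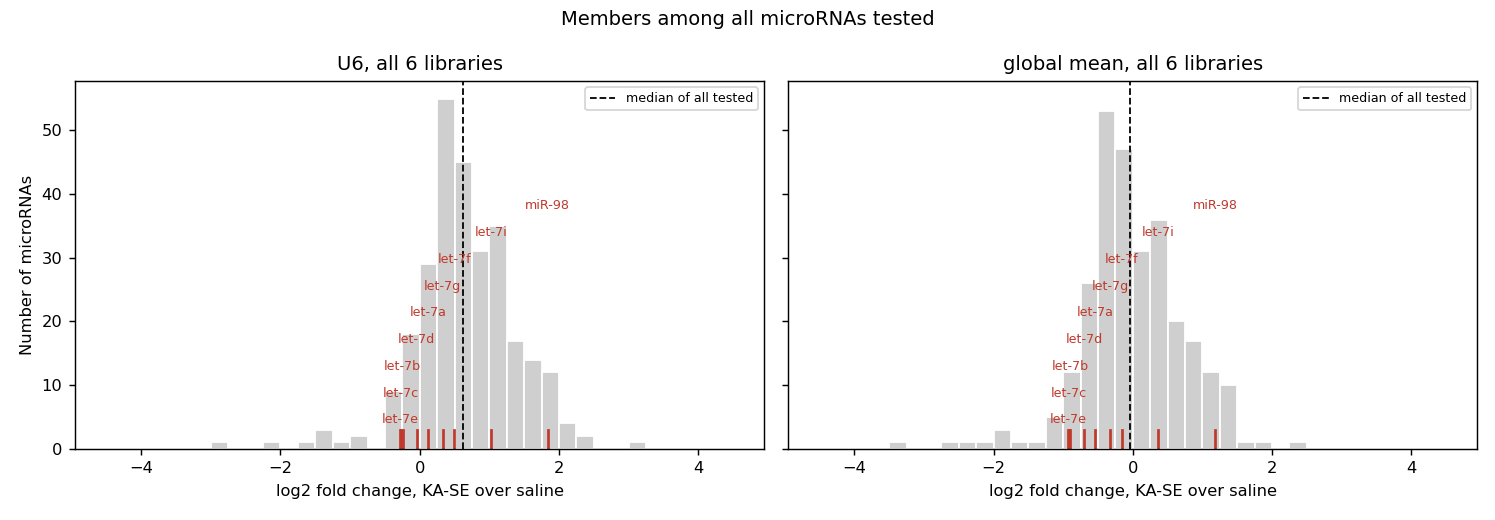
Histograms of the log2 fold change, KA-SE over saline, of the 281 microRNAs tested (grey bars, number of microRNAs on the vertical axis) with U6 (left) and with the mean of the tested microRNAs (right) as reference, all 6 libraries. Red ticks mark the 9 members and the dashed line the median of all 281, at 0.62 on the left and -0.04 on the right. 7 members lie left of the line and let-7i and miR-98 right of it in both panels. The panels cannot differ in this, since the change of reference shifts all 281 estimates by the same amount.

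Without saline replicate 2 the estimates over U6 moved down for the family and for the card as a whole. The median of the members was -0.43, against 0.12 over all 281, and again 7 of 9 members were below the median of all. let-7e was lowest at -0.72 (SE 0.21, 95% interval -1.23 to -0.21, unadjusted p = 0.0137, adjusted p = 0.429 with limma). It was the 1 member at an unadjusted p under 0.05 in the lower direction, where the share over all microRNAs was 2.49%. let-7a, let-7b, let-7c, let-7d and let-7e were lower in each of the 3 KA-SE mice than in both remaining saline mice, which makes 5 of 9 members against 8.9% of all 281 microRNAs. None passed the adjusted test, which called 0% of the 281 in this setting, and 3 mice against 2 carry little weight.

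The members were also read with the mean of the 281 tested microRNAs of each library as the reference. This takes out a shift shared by all microRNAs of a library. The change of reference moves all 281 estimates by the same amount, so the place of the members among them cannot change. What can change is whether the groups overlap. The new reference does not take out all of the delay of saline replicate 2, whose quartiles over the tested microRNAs were 1.53 and 3.19 cycles. On that scale let-7a to let-7e were lower in KA-SE mice, without overlap, while let-7f, let-7g, let-7i and miR-98 overlapped. let-7e had a level of 6.44, 6.61 and 6.58 in KA-SE mice and of 7.29, 7.69 and 7.45 in saline mice. All 3 KA-SE values were below all 3 saline values, and the spread within each group was small, with means of 6.54 ± 0.09 and 7.48 ± 0.20 (SD, n = 3 each). The log2 fold change was -0.93 (SE 0.24, 95% interval -1.51 to -0.36, unadjusted p = 0.00669, adjusted p = 0.464 with limma).

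let-7c had a level of 6.28, 6.59 and 6.69 in KA-SE and of 6.96, 7.86 and 7.50 in saline mice, and a log2 fold change of -0.92 (SE 0.31). let-7b had a level of 5.07, 5.57 and 5.56 in KA-SE and of 5.82, 6.78 and 6.31 in saline mice, and a log2 fold change of -0.90 (SE 0.33). These 2 members moved side by side from library to library, and KA-SE replicate 1 was the lowest library for both. let-7d and let-7a were lower by less, with a log2 fold change of -0.70 (SE 0.26) and -0.54 (SE 0.25), and the KA-SE mice were below every saline mouse in each.

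The other members did not share this. let-7g and let-7f gave -0.33 (SE 0.27) and -0.16 (SE 0.24), with KA-SE values inside the saline range in at least 1 mouse. let-7i had a level of 4.64, 4.53 and 4.60 in KA-SE and of 4.23, 3.69 and 4.76 in saline mice. The KA-SE mice were tightly grouped within a wide saline range, and the log2 fold change was 0.37 (SE 0.32). miR-98 stayed the most variable member at 1.18 (SE 0.90).

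**Figure D3:**
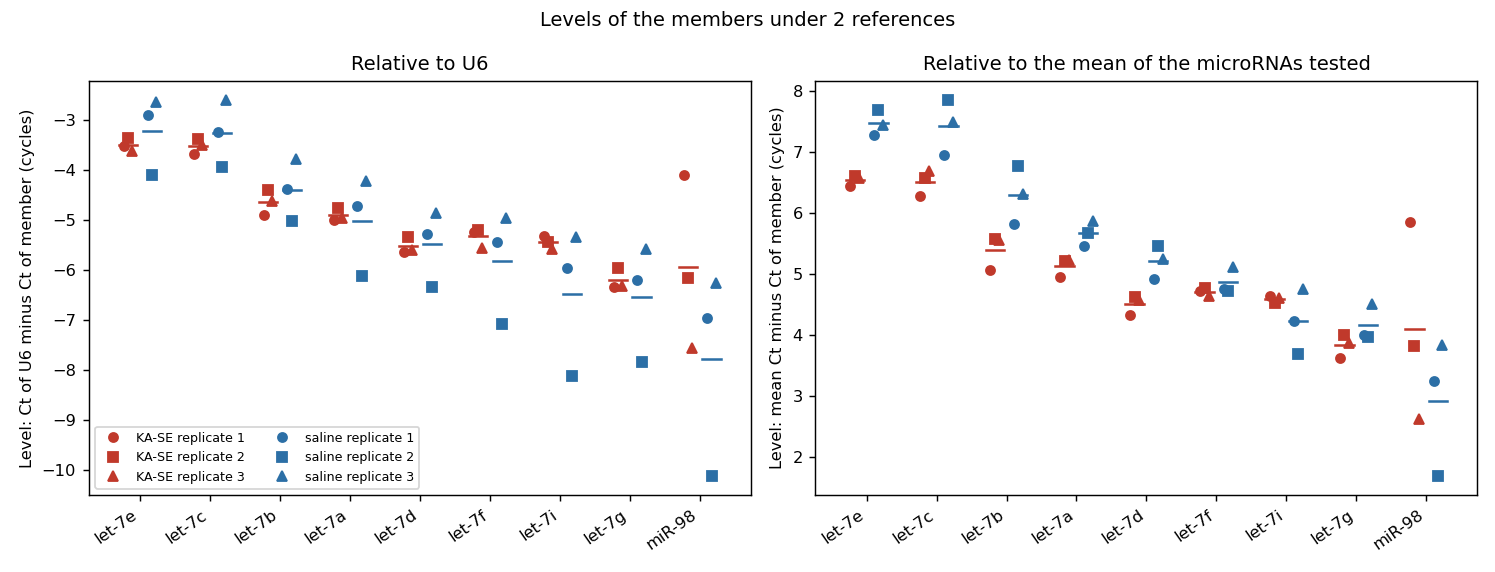
Level in cycles of the 9 members in the KA-SE libraries (red) and saline libraries (blue), as Ct of U6 minus Ct of the member (left) and as mean Ct of the 281 tested microRNAs minus Ct of the member (right), with group means as lines. On the right the KA-SE values of let-7e (6.44 to 6.61) and of let-7c, let-7b, let-7a and let-7d lie below all saline values, while on the left saline replicate 2 (blue squares) spreads the saline group across them.

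With this reference 5 of 9 members were lower without overlap, against 12.1% of the 281 microRNAs, and 4 of 9 members were at an unadjusted p under 0.05 in the lower direction, against 5.69%. The median of the members was -0.54 and that of all microRNAs -0.04. Without saline replicate 2 as well, the median of the members was -0.53, against 0.01 over all. The same 5 members had to stay lower without overlap, since each level is taken within its library, and the share over all was 15.3%. At an unadjusted p under 0.05 were 5 of 9, where the share over all was 8.19%. let-7e was again the lowest, at -0.83 (SE 0.15, unadjusted p = 0.00289, adjusted p = 0.329 with limma). No member passed the adjusted test in any of these settings, so the lower levels of let-7a to let-7e are described here and are not calls. They also depended on the reference, since over U6 with all 6 libraries none of the 5 was apart and let-7a had a positive estimate.

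**Figure D4:**
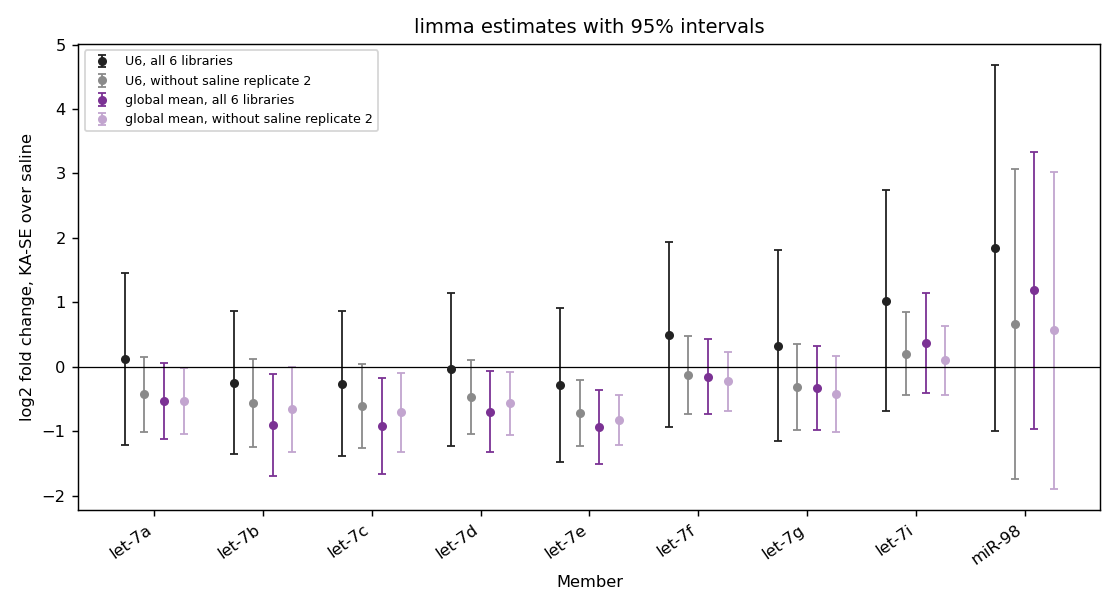
log2 fold change, KA-SE over saline, of each member (points) with its 95% interval from limma (bars) in 4 settings, U6 and the mean of the tested microRNAs as reference, each with all 6 libraries and without saline replicate 2. With U6 and all 6 libraries (black) every interval spans 0, and the interval of let-7e lies below 0 in the other 3 settings, at -0.72, -0.93 and -0.83.

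Members were then compared with each other inside a library, where U6 and any shift shared by the members drop out. Relative to the mean of the 9 members of the same library, let-7b, let-7c and let-7e were lower in KA-SE mice and let-7f and let-7i were higher. Each of the 5 had groups that did not overlap and the smallest p that the exact permutation test allows (p = 0.1, two-sided, n = 3 each). The same measure did not overlap for 29.5% of the 281 microRNAs, and for 50.9% without saline replicate 2. There the same 5 members were apart, which is forced, as the family mean is taken within each library. Both shares count the lower and the higher direction together. Without that library 5 of 9 members is near the share of all microRNAs, so the count is no result about the family.

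let-7e lay 1.34, 1.53 and 1.64 cycles above the family mean in KA-SE mice and 2.10, 2.41 and 1.83 cycles above it in saline mice. let-7i lay on the other side, at -0.46, -0.55 and -0.33 in KA-SE and at -0.96, -1.59 and -0.86 in saline mice. The KA-SE mice were thus closer to the family mean in both members, with a difference of -0.61 for let-7e and 0.69 for let-7i, or -0.46 and 0.47 without saline replicate 2. let-7b and let-7c differed by -0.58 and -0.60, or by -0.30 and -0.34 without that library. Both missed an overlap narrowly, since KA-SE replicate 3 and the nearest saline mouse, saline replicate 1, lay at 0.63 and 0.63 for let-7b and at 1.76 and 1.77 for let-7c. let-7f had the smallest difference of the 5, 0.17, but also the narrowest groups, -0.33 ± 0.04 in KA-SE and -0.50 ± 0.07 in saline mice (SD, n = 3 each).

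**Figure D5:**
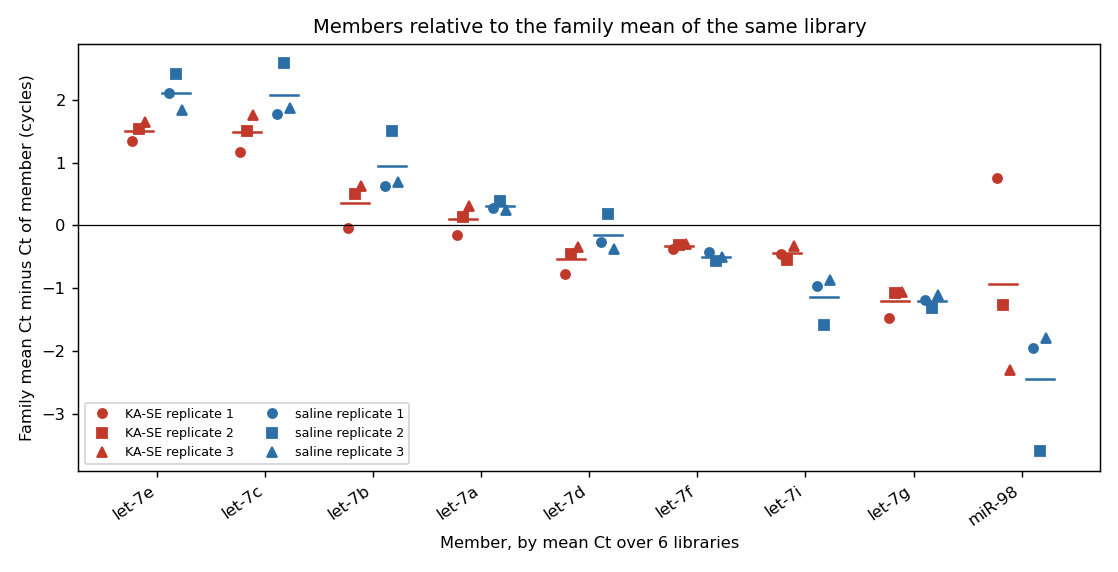
Level of each member relative to the mean of the 9 members in the same library, in cycles, for the KA-SE libraries (red) and saline libraries (blue), with group means as lines and the family mean at 0. let-7e, let-7c and let-7b lie nearer to 0 in all 3 KA-SE mice than in the saline mice, as does let-7i from below (KA-SE mean -0.45, saline mean -1.14), and miR-98 has the widest groups.

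let-7a and let-7d differed by -0.21 (exact permutation p = 0.3, n = 3 each) and -0.37 (p = 0.2) relative to the family mean, with overlap, and by -0.17 and -0.21 without saline replicate 2. Relative to the mean of the 8 let-7 assays, a centre without the variable miR-98 that was added after the values had been seen, let-7d was also lower without overlap (-0.19, exact permutation p = 0.1, n = 3 each), let-7a was at -0.02, let-7f at 0.36 and let-7i at 0.88. With that centre 4 members were lower without overlap, against 2.49% of the 281 microRNAs, and 2 were higher, against 38.8%, though the members also make up the centre. Without saline replicate 2 the 4 became 5 with let-7a (3.2% of all) and the 2 were again let-7f and let-7i (62.6% of all). The 4 and the 2 had to stay apart, as this centre is also taken within each library. Relative to the mean of all 9 members let-7g showed almost no difference, with a mean of -1.20 in both groups. Relative to the 8 let-7 assays let-7g was at 0.19, with overlap. miR-98, again relative to the mean of all 9 members, lay at 0.76, -1.26 and -2.30 in KA-SE and at -1.95, -3.60 and -1.79 in saline mice. Its difference was 1.51 with overlap (exact permutation p = 0.3, n = 3 each), or 0.93 without saline replicate 2. The Ct range from the earliest to the latest member was 2.82, 2.79 and 4.07 cycles in KA-SE replicates 1, 2 and 3 and 4.05, 6.18 and 3.66 cycles in saline replicates 1, 2 and 3, so the ranges overlapped between the groups. The range of the 8 let-7 assays alone was 2.82, 2.61 and 2.82 cycles in KA-SE and 3.29, 4.17 and 2.98 cycles in saline mice, narrower in every KA-SE mouse, and the overlap over all 9 members came with miR-98.

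Taken in pairs, the difference in Ct between 2 members did not overlap between KA-SE and saline mice for 20 of the 36 pairs, or 55.6%. Over all 39340 pairs of tested microRNAs the share was 23.9%. Pairs share members and are not independent, and this count was chosen after the values had been seen. Without saline replicate 2 these 20 pairs had to stay apart in the same direction, since each difference is taken within its library. No further pair of members came apart, and the share over all pairs was 33.6%. In 14 of 15 pairs that join a member among let-7a to let-7e with let-7f, let-7g or let-7i the groups were apart, the exception being let-7a with let-7g. Within let-7a to let-7e 3 of 10 pairs were apart, all 3 pairs among let-7f, let-7g and let-7i were apart, and 0 of 8 pairs with miR-98 were. This division follows the members that were lower relative to the mean of the tested microRNAs, so these counts are not independent of that result.

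Among the let-7 assays the distance that differed most between KA-SE and saline mice was that between let-7e and let-7i. let-7i came up 1.80, 2.08 and 1.97 cycles after let-7e in KA-SE mice and 3.06, 3.999 and 2.69 cycles after it in saline mice. This distance was shorter in all 3 KA-SE mice than in the saline mice, with a KA-SE minus saline difference of -1.30 cycles, and of -0.93 cycles without saline replicate 2. In contrast let-7b and let-7c, which derive in part from neighbouring genes, kept their distance, with 0.02 between the groups. So did let-7e with let-7c (0.01) and with let-7b (0.03) over all 6 libraries, though its gene is not a neighbour of theirs. Without saline replicate 2 the differences were 0.05 for let-7b with let-7c, 0.12 for let-7e with let-7c and 0.16 for let-7e with let-7b. Of the neighbours let-7a, let-7d and let-7f, the distance between let-7a and let-7d differed by 0.16, with overlap, and by 0.04 without saline replicate 2. That between let-7d and let-7f differed by -0.54, without overlap, and by -0.34 without saline replicate 2. let-7a and let-7f did not keep their distance either. let-7f followed let-7a by 0.23, 0.45 and 0.59 cycles in KA-SE and by 0.71, 0.96 and 0.74 cycles in saline mice.

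Set beside the sequences printed above, the 5 members that were lower relative to the mean of the tested microRNAs are those with the bases of let-7a at positions 11 and 12. let-7f carries G12A, let-7g and let-7i carry G12U, and miR-98 carries G11A. This grouping was noticed after the values had been seen, and it was not tested. It also depended on the reference, since with the median of the tested microRNAs in place of their mean let-7f and let-7g were lower without overlap as well. The members divide in the same way by how late they were in saline replicate 2. Against the mean of saline replicates 1 and 3, that library was later by 1.67 to 2.38 cycles for let-7a to let-7e and by 2.61 to 4.24 cycles for let-7f, let-7g, let-7i and miR-98. The SD of the Ct difference over the 6 libraries had a median of 0.26 cycles (range 0.07 to 0.32) for the 4 pairs that differ by 1 base, 0.40 (0.16 to 1.88) for the 10 pairs with 2 substitutions, 0.47 (0.15 to 1.91) for the 11 pairs with 3 and 0.59 (0.19 to 1.73) for the 9 pairs with 4. The single pairs with 5 and 6 substitutions had 0.83 and 0.74 cycles. The ranges overlapped widely, and none of the 4 pairs that differ by 1 base holds let-7i or miR-98. Among let-7a to let-7e alone the SD was 0.07 to 0.32 cycles for pairs with 1 substitution and 0.17 to 0.34 with 2. It was 0.15 to 0.22 with 3 and 0.19 for the pair with 4, so no such rise was seen among them.

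The microRNAs whose genes lie with let-7 genes were read as a list of 5, miR-99a, miR-99b, miR-100, miR-125a-5p and miR-125b-5p. The miR-99 and miR-100 RNAs share a seed of their own, and the miR-125 RNAs are the mammalian relatives of lin-4, the worm's other timing microRNA. Over U6 0 of 5 were called in either direction, where 0% of all microRNAs were. The groups overlapped in all 5 in each of the 4 settings. Over U6 the share of all microRNAs lower without overlap was 1.42% with all 6 libraries and 8.9% without saline replicate 2. The share higher without overlap over U6 was 19.2% and 19.6% in turn. With the mean of the tested microRNAs the lower share was 12.1% and 15.3% in turn, and the higher share is not given here. miR-99b, beside let-7e in the genome, had a Ct of 18.09, 18.92 and 18.97 in KA-SE and of 18.90, 19.63 and 18.92 in saline mice. Its log2 fold change over U6 was 0.32 (SE 0.40), and 0.33 (SE 0.24) without saline replicate 2, where let-7e gave -0.72. miR-125a-5p, also beside let-7e, gave 0.10 (SE 0.43) and 0.07 (SE 0.31). The difference between let-7e and these neighbours was not tested. For miR-99a, miR-100 and miR-125b-5p the log2 fold change over U6 was 0.19 (SE 0.45), 0.22 (SE 0.44) and -0.06 (SE 0.41), and -0.004, -0.05 and -0.18 without saline replicate 2. With the mean of the tested microRNAs as reference all 5 partners had negative estimates over 6 libraries, -0.47 for miR-99a, -0.33 for miR-99b, -0.43 for miR-100, -0.56 for miR-125a-5p and -0.71 for miR-125b-5p, beside the median of -0.54 over the members. Without saline replicate 2 these were -0.11, 0.23, -0.16, -0.03 and -0.28, beside -0.53.

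The tested microRNAs outside the family whose profile over the 6 libraries was most like the family mean were miR-146b, miR-380-5p, miR-331-5p, miR-126-3p and miR-532-5p. Likeness was the root mean square difference between profiles, with levels relative to the mean of the tested microRNAs and each profile centred on its own mean. It was 0.0990 cycles for miR-146b, a microRNA induced in inflammation, 0.107 for miR-380-5p, 0.127 for miR-331-5p, 0.157 for the endothelial miR-126-3p and 0.170 for miR-532-5p, against a median of 0.493 over the 272 microRNAs outside the family. Among the members let-7f was nearest to the family mean (0.0960) and miR-98 farthest (1.31), with 253 of the 272 others nearer than miR-98. Many of the 272 were also nearer than let-7b (118), let-7c (108), let-7i (105) and let-7e (78). For let-7d, let-7a and let-7g the number nearer was 44, 7 and 3. A microRNA like the family mean is thus not necessarily like each member. Over the 5 libraries without saline replicate 2 these 5 microRNAs ranked 6 (miR-146b), 8 (miR-380-5p), 10 (miR-331-5p), 27 (miR-532-5p) and 35 (miR-126-3p) in likeness, so other microRNAs were then nearer.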

How the data were processed

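The authors made cDNA from 800 ng of total RNA of each right dentate gyrus with Megaplex primers and loaded it on 1 TaqMan microRNA card per mouse. They deposited a table of raw Ct and a table of Ct relative to a reference, both in cycles, which is another unit than a count. The methods name RNU6B as reference. The card held no such assay, and U6 (MammU6) was used here. Baseline and threshold settings of the instrument were not given in the sources used here. A further deposited table holds the authors' fold change of each KA-SE library and was not used. Sample columns were assigned by their names, with 0 left out.

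Levels were computed from raw Ct. The 281 microRNAs below Ct 35 in all 6 libraries were fitted with limma 3.58.1 in R 4.3.3, with group only, and a call needed a Benjamini-Hochberg adjusted p below 0.05 over all 281 and a change of 1.5-fold or more. The fit was tested on simulated data in 20 simulations. For single values a two-sided exact permutation test was used (smallest p 0.1). Precision is limited by the 3 mice in each group, since a Ct carries no read count. The members, the lists of cluster partners and markers, and the tests were chosen with earlier results of these data known. Named microRNAs were the 9 members, the reference RNAs, the 5 cluster partners, the 5 most similar microRNAs and markers of cell types. Those at the ends of the markers' range, miR-223, miR-150, miR-296-3p and ath-miR159a were named after their values were seen. Alternatives were other references, detection limits and tests, the replicate number as a block, each library left out in turn, and saline replicate 2 left out together with another reference. A family mean over the 8 let-7 assays, the count of pairs, and the order and likeness without saline replicate 2 were added after seeing the data. RefSeq coordinates are not given because the deposited tables name no genome build.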

Additional observations from a re-analysis of the deposited data

How the results depend on the processing

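The count of called microRNAs was 0 in every alternative run except with a Ct below 35 in at least 3 libraries, which tested 317 microRNAs and called 1, miR-296-3p, listed at 40 in all saline libraries (adjusted p = 0.000434). The median log2 fold change of the members was 0.12 and moved to -0.54 with the global mean, -0.60 with the median and, without saline replicate 2, to -0.53 with the global mean and -0.55 with the snoRNAs. It ran from -0.43 (without saline replicate 2) to 0.52 (without saline replicate 3) as each library was left out. Members whose groups did not overlap numbered 0 over U6 and 0 to 5 as each library was left out (5 lower without saline replicate 2, let-7i higher without saline replicate 3, where 51.2% of all microRNAs were, and miR-98 higher without KA-SE replicate 3, where 31.7% were). Lower without overlap were 5 with the global mean (12.1% of all), 7 with the median (16.4%), 4 with quantile normalization (12.1%) and, without saline replicate 2, 5 with the global mean (15.3%) and 7 with the snoRNAs (18.5%). A member apart with the global mean over all 6 libraries has to stay apart when a library is left out.

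let-7a, let-7f and let-7g turned negative with the global mean (-0.54, -0.16 and -0.33), with the median (-0.60, -0.22 and -0.39) and, without saline replicate 2, with the global mean (-0.53, -0.23 and -0.42) and the snoRNAs (-0.55, -0.25 and -0.44). Quantile normalization gave -0.18 for let-7a and -0.40 for let-7g, and no reference gave 0.12 for let-7d. As each library was left out over U6, let-7a ran from -0.43 to 0.52, let-7b from -0.56 to 0.058, let-7c from -0.61 to 0.064, let-7d from -0.47 to 0.27, let-7e from -0.72 to 0.011, let-7f from -0.13 to 0.93 and let-7g from -0.32 to 0.81. let-7a, let-7f and let-7g were negative without saline replicate 2 alone, and let-7b, let-7c and let-7e were positive without saline replicate 3 alone. Relative to the family, let-7g was -0.002 and turned positive with the family median (0.095) or the mean of the 8 let-7 assays (0.19), and ran from -0.075 to 0.13 as each library was left out. The causes were not tested.

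Replicate numbers were shared between the groups. Deviations of same-numbered samples correlated at 0.19, 0.24 and 0.05, and every sample correlated best with its own number, which is a hint from the data and not from the design. With the replicate number as a block 0 microRNAs were called (smallest adjusted p = 0.0502), 30 were higher and 3 lower at an unadjusted p under 0.05, and the median of the members was 0.12. The 1 member among them was miR-98 (95% interval 0.27 to 3.41, unadjusted p = 0.0219, adjusted p = 0.361 with limma), and no member was called. With the block every member had the same SE of 0.80, where miR-98 had 1.21 without it. The interval thus does not carry the wider spread of miR-98 itself. Over U6 miR-98 was higher in KA-SE than in saline in replicates 1 and 2 and lower in replicate 3 (-7.57 against -6.27).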

Other observations

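The authors' deposited table of Ct relative to a reference was set against the raw Ct for the members. For part of the assays the value subtracted was a constant of the library, 12.74, 13.53 and 13.29 in KA-SE replicates 1, 2 and 3 and 12.96, 13.84 and 13.48 in saline replicates 1, 2 and 3, close to the Ct of U6. For let-7f it was 11.59, 12.41 and 12.22 in the KA-SE libraries and 11.83, 13.84 and 12.37 in the saline libraries, so that the constant was subtracted in saline replicate 2 alone. For let-7d it was the constant in 5 of 6 libraries (within 0.0015 cycles), and for let-7b and miR-98 in 0 of 6. The sources used here do not say how these values were made.

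The plant microRNA ath-miR159a, which the card carries as a negative control, had a Ct of 40, 19.54 and 18.80 in KA-SE replicates 1, 2 and 3 and of 40, 21.66 and 40 in saline replicates 1, 2 and 3. Signal at that Ct is as early as that of let-7g (19.12, 19.54 and 19.65 in KA-SE and 19.09, 21.71 and 18.98 in saline mice), and it was seen in libraries of both groups.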
